A study of Homo sapiens with 4 samples.

Results

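Control T84 cells collected 7 days after transfection were compared with control cells collected after 5 days, 1 array on each side and 2 of the 4 arrays in the series. T84 is an established human colorectal carcinoma line that forms a tight, polarised cell layer on a porous support. Both cultures were seeded at 500000 cells per well in transwell chambers, on polycarbonate membranes 24 mm wide with 0.4 µm pores. Both received 15 pmol of the same short RNA, described in the labels as a negative control with little homology to human microRNAs (miRNAs), and fresh medium on alternate days. The other 2 arrays of the series held T84 cells collected on day 5 after transfection with miR-338-3p and miR-451 (the 2-miRNA mix) or with these and miR-210 and miR-33a (the 4-miRNA mix). No array held untransfected cells or cells grown on plastic. The comparison addresses what differed between cells on filters 5 and 7 days after transfection, without any added miRNA. Time on the filter and time since transfection cannot be told apart here.

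In the colon, cells born from stem cells at the base of a crypt stop dividing as they move up and mature into absorptive colonocytes or into mucus-secreting goblet cells. Intestinal carcinoma lines held at confluence on filters, with medium on both faces, become polarised and can switch on part of this programme. Cells with too little oxygen stabilise the transcription factor HIF, which binds a short DNA core sequence and raises genes of glycolysis, pH control and mitochondrial turnover.

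Biotin-labelled RNA was hybridised to Affymetrix U133 Plus 2.0 arrays, on which 54675 probe sets, groups of short probes for 1 transcript, report a fluorescence intensity. The deposited intensities had trimmed means of 76.6 on day 5 and 74.3 on day 7, so both were brought to a trimmed mean of 500. Signals below are these scaled values, and differences are log2 of signal plus 32, day 7 minus day 5. After scaling, 12264 genes had an expressed probe set. The medians of all probe sets were 99.3 and 98.99, and the 75th percentiles 408 and 411. GAPDH probe sets at the 3' and 5' ends of the transcript, whose ratio grows as RNA degrades, gave 1.02 on day 5 and 0.978 on day 7, and those of ACTB 2.11 and 2.33. Of 18 probe sets for bacterial control RNAs, 17 were brighter on day 7, with a median difference of 0.22. The part of RNA quality and of these controls in the results was not tested. Each group has 1 array, so samples could not be tested, no p-value is given, and variation between cultures, transfections and hybridisations was not measured. The number of arrays limits the precision.

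The label of the cells was checked against 12 genes of intestinal epithelium. The 12 genes, among them EPCAM, CDH1 (E-cadherin), KRT8, KRT18, KRT19, KRT20, VIL1 and CDX2, were expressed on both arrays. CDX2, the transcription factor that sets intestinal identity, read 1016 on day 5 and 1309 on day 7 (0.36, probe sets 0.36 and 0.45). GPA33, a surface glycoprotein of intestinal epithelium, read 11567 and 22488 (0.96). Each of the 12 genes lay above 0, by 0.09 to 0.96, and none was 2-fold apart. Markers of other cell types were dim in part. PTPRC (CD45, leukocytes) read 59.9 and 59.1 and CD14 (monocytes) 6.26 and 6.49. Under the median of both control arrays were 5 of 10 fibroblast, 3 of 6 leukocyte and 6 of 7 endothelium markers. Above both medians were the fibroblast genes COL1A1 (309 and 288), ACTA2 (249 and 357) and THY1 (164 and 227). So were the endothelial gene PECAM1 (215 and 239) and the leukocyte genes CD3E (123 and 187) and LYZ (111 and 144). The part of these genes in the results was not tested. CD79A, a B cell gene, read 3.65 and 132, at least 1.33-fold the day 5 median, and was the single one past 2-fold among the markers that passed the expression filter. Fewer cells of a type and less RNA per cell cannot be told apart in these bulk samples.

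How far probe sets of 1 gene agree is the single measure of error that these arrays allow. The brightest pair of probe sets of each gene was grouped by the mean log2 level of the dimmer one. At 11 or more, the SD specific to a probe set was 0.19 and the SD shared by the probe sets of a gene was 0.29. At levels under 8 the specific SD was 0.62 and the shared SD 0.20. The same sign was found in 72.0% of pairs whose dimmer probe set was at 11 or more and in 52.1% of those under 8. A difference of 1 was thus far larger than the SD of bright probe sets and much closer to that of dim ones. This error leaves out all that differed between the cultures.

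**Figure D1:**
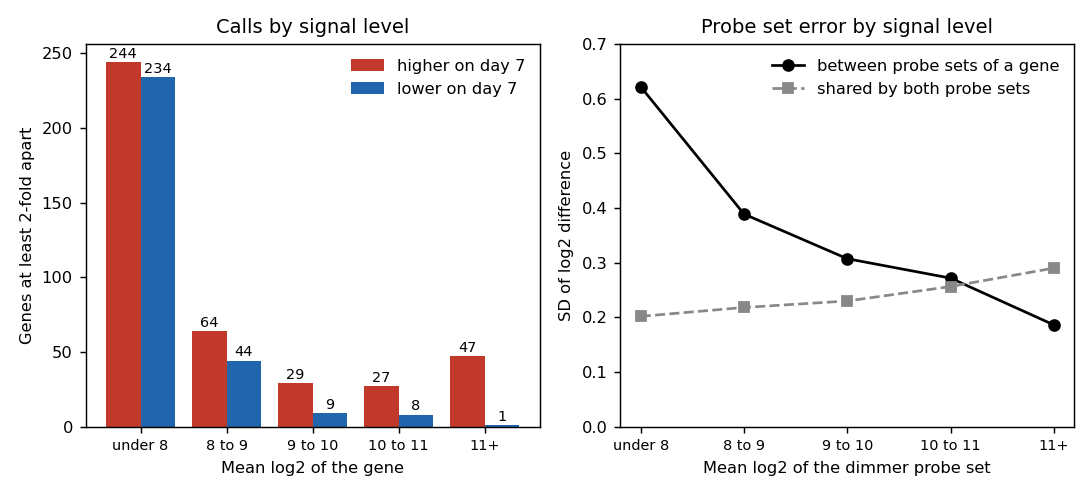
Left, genes at least 2-fold higher (red) or lower (blue) on day 7, by mean log2 level; right, the SD of log2 differences that is specific to a probe set (circles) and shared by both probe sets of a gene (squares), by the level of the dimmer one. Dim genes under a level of 8 gave 244 and 234 calls, whereas bright genes at 11 or more gave 47 and 1.

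Of the 12264 genes, 411 (3.35%) reached a 2-fold excess on day 7 and 296 (2.41%) a 2-fold deficit, with 2-fold taken as a log2 difference of 1. The difference had a median of -0.01 over all genes, an SD of 0.51, and 5th and 95th percentiles of -0.74 and 0.84. Above 0 lay 6043 genes (49.3%), and below 0 lay 6221 (50.7%). The split depended on level. Under a mean log2 level of 8, 244 genes were higher and 234 lower, whereas at 11 or more 47 of 2972 were higher and 1 was lower. That gene was NAE1, a subunit of the enzyme that activates the ubiquitin-like protein NEDD8, at 9737 on day 5 and 4796 on day 7 (-1.02). It was measured by 1 probe set. Among the brightest genes, differences of 2-fold were thus nearly all in the direction of day 7.

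**Figure D2:**
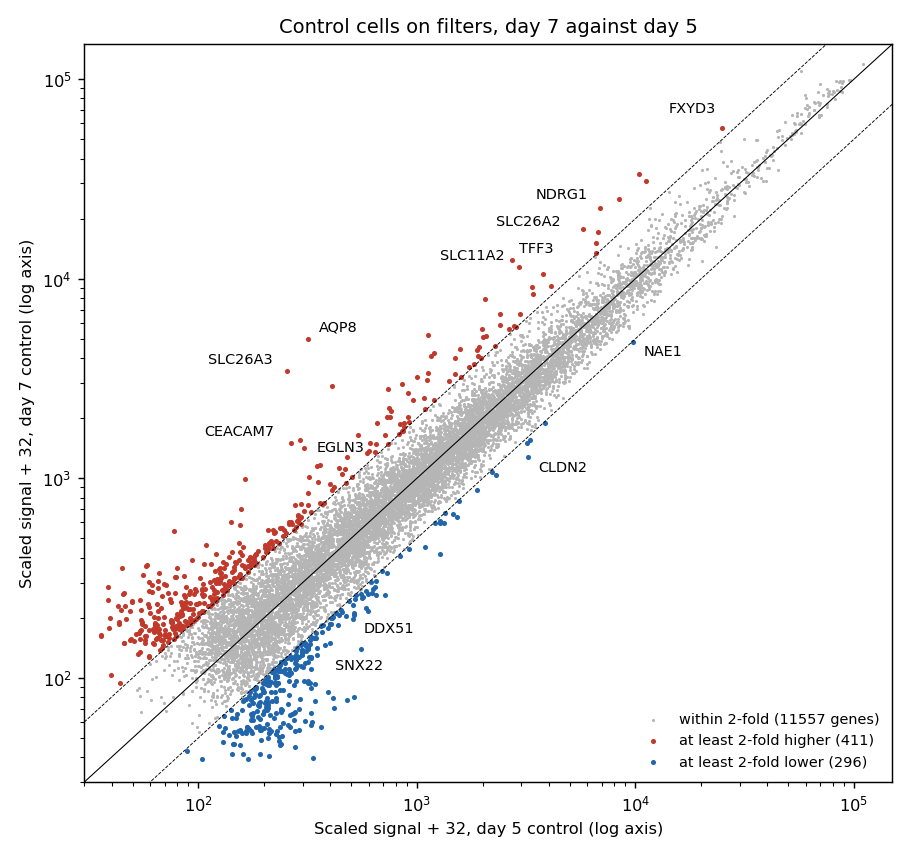
Scaled signal plus 32 of 12264 genes in control cells on day 5 (horizontal, log axis) and day 7 (vertical, log axis); dashed lines mark 2-fold, red points are 411 genes higher and blue points 296 genes lower on day 7. Points fan out at low signal on both sides of the diagonal, and at high signal the points outside the lines lie above it, apart from NAE1.

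Of 5896 genes with more than 1 expressed probe set, 22 (0.373%) were at least 2-fold higher by every probe set and 6 (0.102%) at least 2-fold lower. Among the 114 genes called higher that had several probe sets, all probe sets were on the same side in 78 (68.4%) and all were past 2-fold in 19.3%. Among 60 such genes called lower 27 (45%) had all on the same side and 6 (10%) had all past 2-fold. Of the 296 lower calls 206 had 1 array under its median, as did 217 of the 411 higher calls, so many calls in both directions rest on a dim signal.

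The 2-fold difference of these genes did not always rest on measurable levels on both arrays. Of the 22 higher genes, 8 had no probe set under the median of either control array: BMP2, BNIP3, EGLN3, FXYD3, PLOD2, PTPRR, SLC26A2 and SLC6A8. In the other 14, and in all 6 lower genes, at least 1 probe set was under a median, and a probe set that passed the filter only through the array where it is high had to differ. For such probe sets a lower bound is given, namely the signal of its brighter array divided by the median of the other.

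CEACAM7, an adhesion molecule of the luminal surface of mature colonocytes, led the genes with several agreeing probe sets. It read 232 on day 5 and 1468 on day 7 (2.51), and its dimmer probe sets read 19.3 and 8.48 on day 5 and 481 and 428 on day 7. The dimmer ones were under the day 5 median and give bounds, at least 4.85-fold and at least 4.31-fold. SLC26A2, a sulfate transporter that supplies mucin and matrix synthesis, went from 5698 to 17612 by the brightest of 3 probe sets (1.62 to 1.86). FXYD3, a small regulator of the sodium pump, was among the brightest genes and read 24956 and 57024 (1.09 and 1.19 by its probe sets), but differed by 0.93 after quantile normalization, inside 2-fold. SORL1, a sorting receptor of endosomes, read 6550 and 15120 (1.20), with a second probe set at 1.19 and a dim one at least 2.11-fold higher. FXYD3 and SLC26A2 were bright on both arrays by every probe set, while CEACAM7 and SORL1 were not.

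Further genes of this kind were transporters and enzymes. SLC6A8, the creatine transporter, read 2378 and 5807 (1.28 to 1.92). PLOD2, a lysyl hydroxylase of collagen, read 1082 and 3062 (1.47 and 1.64), and PFKFB4, an enzyme that sets the level of a glycolytic activator, read 580 and 1470 (1.30), with a dim probe set at least 1.45-fold higher. BMP2, a ligand that in the colon is highest towards the surface, read 718 and 1988 (1.43 and 2.08). PTPRR, a receptor-type tyrosine phosphatase, read 317 and 1117, and NXPE1 read 263 and 710 (1.33), with a dim probe set at least 1.40-fold higher. CYLD, a deubiquitinase that restrains NF-κB, NFATC1, a calcium-regulated transcription factor, and LGI4 were under the day 5 median. LGI4 was at least 5.17-fold higher, from a signal of 513 against the day 5 median.

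SNX22, a sorting nexin, was the single gene lower by every probe set whose brighter probe set was at or above both medians, at 346 on day 5 and 114 on day 7 (-1.37). Its other probe set was under the day 7 median and at least 1.89-fold lower. RTEL1, a helicase that protects telomeres, read 197 and 22.2 (at least 1.99-fold lower), and ATAT1, an acetyltransferase of tubulin, 201 and 16.4 (at least 2.03-fold lower). Both probe sets of RTEL1 are of a kind that can match several transcripts. The agreeing lower genes were therefore few and dim.

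**Figure D3:**
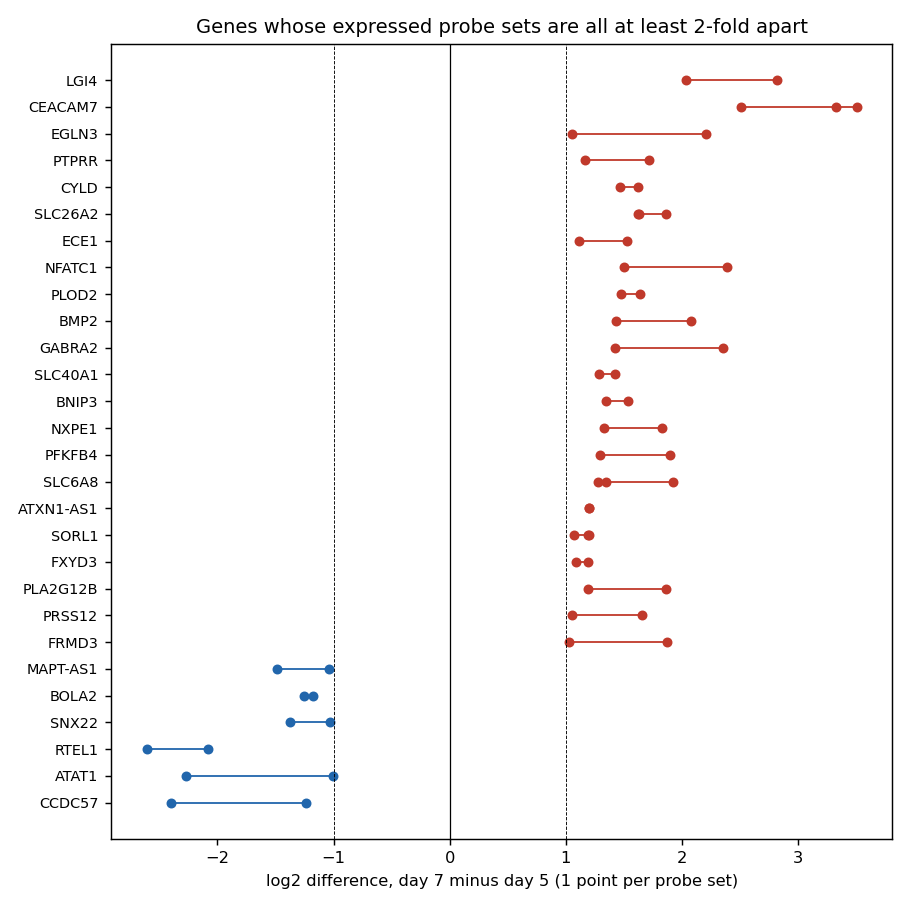
Each point is the log2 difference, day 7 minus day 5, of 1 expressed probe set, for the 22 genes higher (red) and 6 genes lower (blue) by every probe set; dashed lines mark 2-fold. Points of probe sets under the median of 1 array, present in 14 of the higher and all 6 lower genes, are not exact differences, as in CEACAM7, where the brightest probe set is at 2.51 and the others read under the day 5 median.

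Genes of the absorptive colonocyte were higher on day 7. Of 40 listed genes 28 were expressed, 24 of these lay above 0 and 8 were at least 2-fold higher (28.6%, against 3.35% of all genes), with none as much lower. This and the other lists were chosen with earlier results of these data known. Their shares and medians, here and below, are therefore descriptions and not independent support. The list median was 0.78, against -0.01 over all genes, and it stayed between 0.57 and 0.91 under the alternative settings. AQP8, a water channel of surface colonocytes, read 286 on day 5 and 4950 on day 7 (3.97). SLC26A3, the apical exchanger of chloride for bicarbonate, read 223 and 3417 (3.76). Each was above the median of both arrays and had 1 expressed probe set, so no other probe set bears on it. AQP8 and SLC26A3 had the largest differences among genes at or above both medians.

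Smaller differences of the same sign came from other parts of the absorptive cell. CHP2, a cofactor of sodium-proton exchangers, read 327 and 1128 (1.69). SLC51B, a subunit of the basolateral bile acid exporter, read 111 and 393 (1.58). TSPAN1, a tetraspanin, read 3348 and 8395 (1.32), and MALL, a protein of membrane rafts, 1934 and 3949 (1.02). These 4 had 1 expressed probe set each. KRT20, the keratin of mature colonocytes, read 14215 and 27245 (0.94), just inside the threshold. HSD11B2, which inactivates cortisol, differed by 0.89, SCNN1A, a subunit of the epithelial sodium channel, by 0.79, and CA2, a carbonic anhydrase, by 0.76. FABP1, a fatty acid carrier, read 56903 and 109961 (0.95), while its dimmer probe set gave -0.48. The drug exporters ABCB1 (-0.57) and ABCG2 (-0.64) went the other way, and ABCB1 had a dim probe set above 0.

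Secretory genes were higher in part. Of 18 expressed goblet cell genes 12 lay above 0 (66.7%, against 49.3% of all genes), 4 were at least 2-fold higher (22.2%, against 3.35%) and none lower, with a median of 0.46. TFF3, the trefoil peptide that goblet cells secrete with mucin, read 2696 and 12339 (2.18). ZG16, a lectin of colonic mucus, read 8380 and 25146 (1.58), and TFF1, a second trefoil peptide, 697 and 2002 (1.48). WFDC2, a secreted protease inhibitor, read 507 and 1615 (1.61), with a second probe set at 0.30. The mucus components themselves differed less, as MUC2, the gel-forming mucin of the colon, at 907 and 1264 (0.46), and FCGBP, which binds it, at 3556 and 6057 (0.76). Among cell-surface mucins, MUC20 read 1089 and 5201 (2.22), but its 4 probe sets ran from 0.48 to 2.22. MUC13, a membrane mucin of the colon, read 8299 and 13129 (0.66, second probe set 1.18).

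Other secretory lineages showed no common direction. Of 8 expressed Paneth cell and antimicrobial genes 5 lay above 0. PLA2G2A, a bactericidal phospholipase, read 1165 and 2426 (1.04), whereas the defensins DEFA5 (3224 and 1833, -0.80) and DEFA6 (2687 and 1854, -0.53) were lower. Of 7 expressed enteroendocrine genes 3 lay above 0, and CHGA, a protein of hormone granules, read 623 and 384 (-0.66).

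The microvilli of the brush border carry digestive enzymes on a core of actin bundles. Of 19 expressed brush border genes 17 lay above 0, with a median of 0.28, and both genes past 2-fold were peptidases. MEP1A, a meprin subunit, read 1467 and 3295 (1.15). ANPEP, aminopeptidase N, read 55.4 and 252 and was at least 2.54-fold higher than the day 5 median. The structural genes differed less, as PLS1 (plastin, 0.58), MYO1A (0.51), EZR (ezrin, 0.30) and VIL1 (villin, 0.14). The peptidase DPP4 differed by 0.10, so the enzymes did not all share the size of difference.

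Tight junction genes lay mostly above 0, 15 of 18 with a median of 0.27, and 1 was past 2-fold in the other direction. This gene was CLDN2, a claudin that makes the junction leaky to cations and water, at 3179 on day 5 and 1239 on day 7 (-1.34, 1 probe set). CLDN15, a further pore-forming claudin, read 322 and 186 (-0.70, second probe set -0.68). Other claudins lay on both sides of 0. CLDN3 was at 0.46 (second probe set 0.58), CLDN4 at 0.40 and CLDN23 at 0.75, whereas CLDN1, a barrier-forming claudin like CLDN3 and CLDN4, was at -0.47 (second probe set -0.07). OCLN (occludin, 0.09) and TJP1 (ZO-1, 0.15) had probe sets on both sides of 0.

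Genes of adherens junctions and desmosomes (14 of 18 above 0, median 0.21) and of integrins and laminins (14 of 19, 0.16) lay mildly above 0, and those of polarity complexes were spread (12 of 20, 0.14). ITGB1, which encodes β1-integrin, differed by 0.26, with probe sets from -0.07 to 0.27. None of the 20 polarity genes was 2-fold apart. PARD6B, a partner of the PAR3 and aPKC complex, read 196 and 107 (-0.71), and PATJ, of the Crumbs complex, 377 and 660 (0.76, 3 probe sets 0.21 to 0.76).

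T84 cells are used as a model of chloride secretion, and the 14 expressed genes of that machinery had a median of -0.00, with 7 above and 7 below 0. CFTR, the apical chloride channel, read 6396 and 7002 (0.13, probe sets -0.11 to 0.13). SLC12A2, the cotransporter that loads chloride at the base, read 18121 and 14353 (-0.34, second probe set 0.35), and ATP1B1, a subunit of the sodium pump, 20200.5 and 34890.0 (0.79, second probe set 0.66). PRKG2, a kinase that activates CFTR in response to guanylin, read 296 and 78.2 and was at least 2.99-fold lower on day 7. The channel and the cotransporter thus differed little, and the 1 large difference came from a dim gene.

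Targets of HIF had a median of 0.87 (0.67 to 0.95 under the alternative settings). It was above the 0.78 of absorptive colonocyte genes, but not by the median over probe sets (0.67 against 0.72) or without shared probe sets (0.78 against 0.89). Of 32 listed genes 30 were expressed, 28 lay above 0 and 13 were at least 2-fold higher (43.3%, against 3.35% of all genes), with none lower. This share too is a description, since the list was chosen with earlier results known. Of the 16 with several probe sets, 11 had all of them above 0 and 3 had all past 2-fold. EGLN3, the prolyl hydroxylase that marks HIF for destruction and is itself a HIF target, read 273 and 1381 (2.21, second probe set 1.06). NDRG1, a gene raised in most cells short of oxygen, read 6872 and 22544 (1.71). BNIP3, a receptor for the removal of mitochondria, read 6740 and 17134 (1.34, second probe set 1.54), and its paralog BNIP3L 1889 and 4492 (1.24, second probe set 0.97). The 4 genes were far above the array medians on day 7.

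DDIT4, an inhibitor of the growth kinase mTORC1, read 3756 and 10537 (1.48). ADM, the vasodilator peptide adrenomedullin, read 3331 and 9092 (1.44), and ANKRD37 read 1090 and 3333 (1.58). PDK1, which keeps pyruvate out of mitochondria, read 572 and 1334 (1.18, other probe sets down to 0.47). P4HA1, a collagen prolyl hydroxylase, differed by 1.17, MXI1, an antagonist of MYC, by 1.11, and KDM3A, a histone demethylase, by 1.02. VEGFA, the angiogenic factor, read 2081 and 4091 (0.96, 4 probe sets 0.57 to 0.96), and ERO1A, an oxidase of the endoplasmic reticulum, differed by 0.77 to 0.89 over 3 probe sets. Not every target followed. SLC2A1, the glucose transporter GLUT1, read 1555 and 1284 (-0.27, second probe set -0.23), and PFKFB3 read 355 and 359 (0.01).

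HIF binds the core ACGTG or GCGTG. In RefSeq promoters (GRCh38.p14), cut to the 250 bases before the first listed start, this core was searched on both strands, and the promoters of the HIF targets 2-fold higher that held it more than once are shown because they carry the motif that names the list. Capitals mark each match, and where CACGTG holds ACGTG on both strands it counts as 2. ANKRD37 is at chr4:185396591-185396840 on the plus strand with 3 matches, DDIT4 at chr10:72273674-72273923 on the plus strand with 3, and BNIP3 at chr10:131981924-131982173 on the minus strand with 6.
ANKRD37: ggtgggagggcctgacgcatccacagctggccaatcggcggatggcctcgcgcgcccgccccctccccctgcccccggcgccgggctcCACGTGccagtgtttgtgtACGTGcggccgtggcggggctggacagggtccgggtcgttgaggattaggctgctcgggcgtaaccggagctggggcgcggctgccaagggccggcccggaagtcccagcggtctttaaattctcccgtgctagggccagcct
DDIT4: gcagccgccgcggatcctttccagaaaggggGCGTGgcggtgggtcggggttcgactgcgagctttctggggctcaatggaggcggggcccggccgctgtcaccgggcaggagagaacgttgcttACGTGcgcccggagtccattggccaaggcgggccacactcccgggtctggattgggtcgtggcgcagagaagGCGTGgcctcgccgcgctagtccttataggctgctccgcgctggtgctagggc
BNIP3: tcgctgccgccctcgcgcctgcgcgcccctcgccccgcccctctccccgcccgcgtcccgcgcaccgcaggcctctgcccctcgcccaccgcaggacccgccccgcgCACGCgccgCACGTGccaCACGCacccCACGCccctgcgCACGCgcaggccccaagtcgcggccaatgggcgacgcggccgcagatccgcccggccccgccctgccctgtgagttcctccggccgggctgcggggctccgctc
Of the 24 expressed HIF targets with an entry, 18 (75%) held ACGTG or GCGTG, against 5650 of 9958 compared genes (56.7%) and 11763 of 27305 promoters in all (43.1%). ACGTG was in 12 of the 24 (50%) and in 23.3% of the compared genes, and GCGTG in 12 (50%) and in 44.9%. The motifs were chosen after the list values were seen. Among the 11 targets at least 2-fold higher with an entry, 7 (63.6%) held either core, and EGLN3, PDK1, MXI1 and TMEM45A held none in this window. ACGTG was in 4 of these 11 (36.4%) and GCGTG in 5 (45.5%). A match is a run of letters and was not measured as a binding site here. Over all 299 genes 2-fold higher with an entry, 45.8% held either core, below the 56.7% of the compared genes. For ACGTG the share was 18.7%, below 23.3%.

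Glycolysis, which HIF raises in many cells, was higher by less. Of 17 expressed genes 14 lay above 0, with a median of 0.42. ALDOC, an aldolase, read 1122 and 4056 (1.82) and was the single gene past 2-fold. ENO2, an enolase, read 191 and 400.2 (0.95), and ALDOA, the main aldolase, 21276 and 35347 (3 probe sets, 0.71 to 0.86). HK2, a hexokinase, differed by -0.18, and a further probe set was under the day 7 median. The 26 expressed genes of the respiratory chain, by contrast, had a median of 0.01, with 14 above 0 and no gene 2-fold apart.

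Genes of ribosome production were lower. Of 30 expressed genes for the assembly of ribosomes in the nucleolus 29 lay below 0, against 50.7% of all genes, with a median of -0.48 (-0.48 to -0.45 under the alternative settings). Single differences were small, and 1 gene was past 2-fold. DDX51, a helicase of the large subunit, read 475 on day 5 and 165 on day 7 (-1.36, 1 probe set). NHP2, a protein of the RNA particles that modify ribosomal RNA, read 23393 and 14450 (-0.69). NOLC1, a scaffold of the nucleolus, read 7777 and 4950, and its 3 probe sets were within -0.66 to -0.65. RRS1 read 1857 and 1038 (-0.82), and NOP58, a core protein of box C/D particles, differed by -0.65. Of 14 members with several probe sets, 7 had all below 0, 6 had them on both sides and 1, RRP1B (0.03), had all above. NPM1, nucleophosmin, was at -0.01 and NIP7 at -0.99 with a probe set at 0.10.

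Related families, grouped by gene name after the lists had been seen, lay on the same side. Subunits of RNA polymerases I and III, which make ribosomal and transfer RNA, were below 0 in 13 of 17, with a median of -0.40. POLR1A, the largest subunit of polymerase I, read 431 and 287 (-0.53, 3 probe sets down to -1.01). POLR1A, POLR1B and POLR1C were already in the list of ribosome assembly genes, so this family partly repeats that list. Proteins of the mitochondrial ribosome were below 0 in 59 of 75 (-0.23), and transfer RNA synthetases in 20 of 30 (-0.16). Translation initiation factors were below 0 in 28 of 44 (-0.13), and EIF2B3, a subunit of the exchange factor that recharges initiation, read 2280 and 1006 (-1.16). Proteins of the cytosolic ribosome went the other way, 47 of 56 above 0 with a median of 0.12, which was 0.00 after quantile normalization.

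The enhancer box CACGTG, the site of MYC and related factors, was searched in the same promoters. It was in 2 of 26 ribosome assembly genes with an entry (7.69%) and in 8.82% of compared genes. With the first 50 transcribed bases added, it was in 9 of 26 (34.6%) and in 10.2%. MYC itself read 15161 and 11583 (-0.39). A part of MYC in the lower ribosome assembly genes was not tested.

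Protein turnover and folding genes were lower by similar amounts. Of 33 proteasome subunits 30 lay below 0 (median -0.29), and of 13 with several probe sets 10 had all below 0 and none all above. PSMD2, of the regulatory particle, read 9252 and 5748 (-0.68). The 3 subunits above 0 were PSMC6 (0.03) and PSMB9 and PSMB10 (0.10 and 0.21), which are exchanged into the immunoproteasome, although PSMB8, also of that form, was at -0.39. Of 14 heat shock genes 13 lay below 0 (-0.23), as STIP1, a cochaperone of HSP90, at 5795 and 3520 (-0.71, second probe set -0.65), and HSPA4, with 4 probe sets from -0.53 to -0.49. Genes of the unfolded protein response differed, with 14 of 22 above 0. DDIT3, a transcription factor of stressed cells, read 611 and 1322 (1.07).

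**Figure D4:**
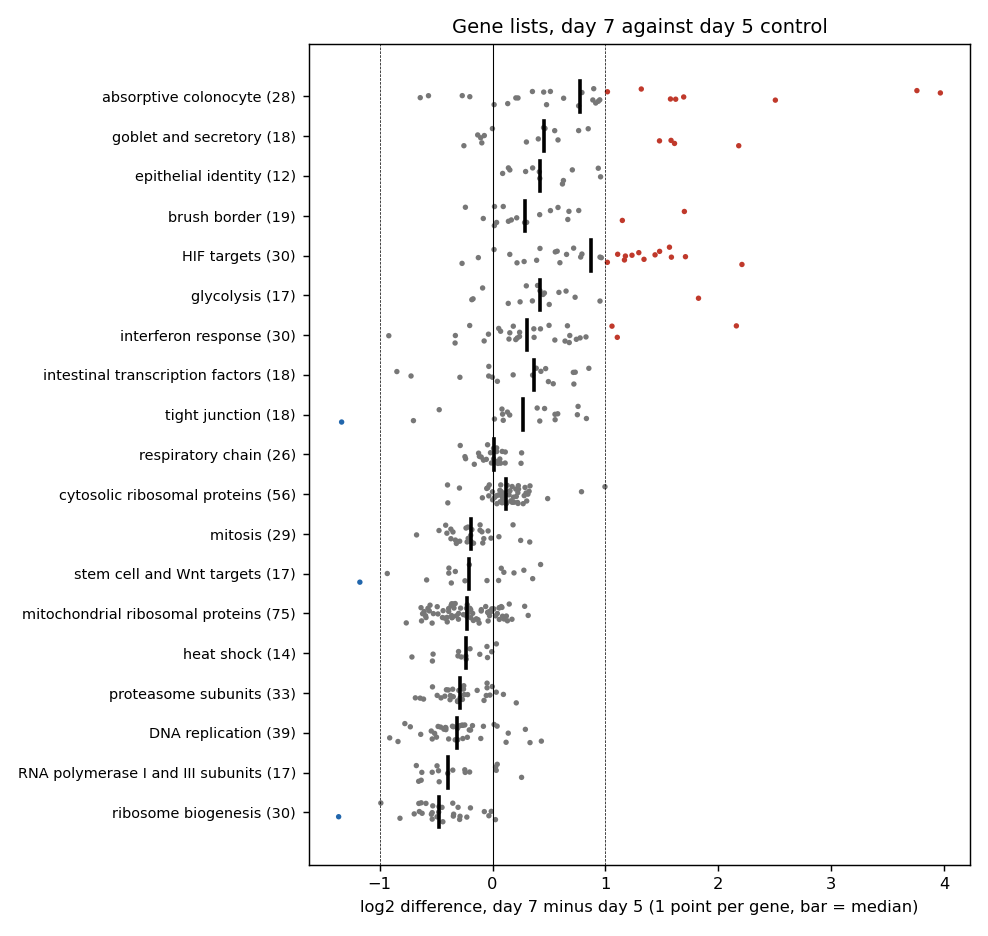
Each point is the log2 difference, day 7 minus day 5, of 1 expressed gene in a list or name family, with the number of genes in brackets; bars are medians, dashed lines mark 2-fold, red and blue points are past it. Medians run from 0.87 for HIF targets and 0.78 for absorptive colonocyte genes to -0.48 for ribosome biogenesis, where all points but 1 lie below 0.

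Genes of the cell cycle were lower by small amounts. Of 39 expressed DNA replication genes 32 lay below 0, with a median of -0.31 and none 2-fold apart, and of the 21 with several probe sets 9 had all below 0 and 1 all above. MCM7, of the replicative helicase, read 8442 and 5820 (-0.53, second probe set -0.40), and GINS2, a partner of that helicase, 6888 and 4817 (-0.51, second probe set -0.48). CHAF1A, a chromatin assembly factor, differed by -0.91, with a probe set at 0.30. PCNA, the sliding clamp, read 15457 and 12458 (-0.31).

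Of 29 mitosis genes 25 lay below 0 (median -0.19). BUB1, a checkpoint kinase, read 2962 and 1846 (-0.67, second probe set -0.54), and CDC20, which starts anaphase, 5505 and 3954 (-0.47). MKI67, the proliferation antigen Ki-67, read 4573 and 4450.0 (-0.04), and its 4 probe sets ran from -0.51 to 0.03. Genes that restrain division lay above 0 in 14 of 19 (0.10). CDKN1A, the inhibitor p21, read 1487 and 2167 (0.53), BTG1 2918 and 5203 (0.83, second probe set 0.59), and CCNG2 differed by 0.69 to 1.39 over 4 probe sets.

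Stem cell genes and Wnt targets had a median of -0.21 (-0.26 to -0.05 under the alternative settings). Of 17 expressed genes 10 lay below 0, against 50.7% of all genes. SMOC2, a secreted protein of crypt stem cells, read 609 and 252 (-1.18). LGR5, the stem cell receptor for R-spondin, read 3558 and 2715 (-0.39, second probe set -0.28). OLFM4 (0.43) and ASCL2 (0.36), further genes of the crypt base, were on the other side of 0. Transcription factors of the intestine were above 0 in 12 of 18 (0.37), led by PRDM1 (BLIMP1) at 0.85 (second probe set 0.71) and KLF4, a factor of cells that have stopped dividing, at 7121 and 11716 (0.72, second probe set 0.98).

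Iron genes differed in both directions. SLC11A2, the apical importer of iron DMT1, read 2899 and 11402 (1.96), but its 5 probe sets ran from 0.12 to 2.15. SLC40A1, ferroportin, which exports iron at the basal side, read 1455 and 3957 (1.42), with a dim probe set at least 2.23-fold higher. HEPH, the oxidase that works with ferroportin, read 15057 and 24303 (0.69, with a second probe set under the day 5 median), and TFRC, the transferrin receptor, 23043 and 31939 (0.47). TFR2, a sensor of transferrin, was at least 1.38-fold lower. The importer, the exporter and its oxidase thus lay above 0 by every probe set, while the 14 expressed iron genes had a median of 0.15 with 9 above 0.

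Among 211 expressed solute carriers, 16 (7.58%) were at least 2-fold higher and 7 (3.32%) lower, against 3.35% and 2.41% of all genes. The family median was 0.04. SLC25A24, a mitochondrial carrier of ATP, read 2016 and 7872 (1.95), and SLC44A4, a choline transporter, 407 and 1094 (1.36, second probe set 0.52). SLC7A5, the leucine transporter LAT1, read 3156 and 1462 (-1.09), and SLC37A3 differed by -1.10. SLC31A1, the copper importer, read 1857 and 842 (-1.11), with other probe sets up to 0.16.

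Interferon response genes were above 0 in 24 of 30, with a median of 0.30. APOBEC3C, a deaminase that restricts viruses, read 125 and 669 (2.16), and GBP2, a guanylate-binding protein, 140 and 326 (1.06). Each had 1 expressed probe set, and that of APOBEC3C is of a kind that can match several transcripts. Other members stayed near 0, as ISG15 (-0.20) and IFIT1 (-0.07), and USP18, the brake on the pathway, read 373 and 182 (-0.92). In BMP and TGF-beta signalling, 10 of 17 lay above 0 and, besides BMP2, SKIL, a corepressor of SMADs, was past 2-fold at 967 and 3174 (1.68, other probe sets down to 0.14). SMAD9 read 421 and 181 (-1.09). CYP3A5, an enzyme of drug oxidation, read 708 and 2781 (1.93, 3 probe sets from 0.63), and CYP4F2, a fatty acid hydroxylase, was at least 3.27-fold higher. The probe set of CYP4F2 can also match several transcripts.

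Several large differences rested on 1 probe set. RNF186, a ubiquitin ligase of colonic epithelium, read 376 and 2859 (2.83), MRAP2, an accessory protein of melanocortin receptors, 131 and 954 (2.60), and SMIM24 260 and 1515 (2.41). LCN15, a lipocalin, read 10359 and 33318 (1.68), CKB, the brain-type creatine kinase, 11119 and 30809 (1.47), IGFBP2, a carrier of insulin-like growth factors, 1546 and 4428, and EFNA1, an ephrin, 2375 and 6607 (1.46). Lower in this class were UBE2NL (-1.60), TIMM29 (-1.46), PGAM5, a mitochondrial phosphatase (-1.45), and VEGFB at 402 and 151 (-1.24). The probe sets of UBE2NL and VEGFB are of a kind that can match several transcripts. VIM, vimentin, read 6.34 and 251 and was at least 2.53-fold higher, with 1 expressed probe set. FGD2 was at least 4.86-fold lower by its brightest probe set, while another, under the day 5 median, was at least 2.17-fold higher, so its direction was not settled.

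The day 5 arrays of the miRNA mixes give a view of where the day 7 level fell, as levels only, since any difference from day 5 would share the control array. Their deposited intensities were brighter, with trimmed means of 147 and 150.0, and after scaling they read 49605 and 47158 for GAPDH, against 82799 on day 5 and 98073 on day 7 in the controls, and 37625 and 41049 for ACTB, against 69238 and 66320.2. Levels of the brightest genes are therefore not comparable between the miRNA arrays and the controls. How far down in signal this reaches was not measured. Where bright genes such as NDRG1 and BNIP3 are placed in order below, the order is of scaled values only. AQP8 read 709 with the 2-miRNA mix and 1183 with the 4-miRNA mix, between 286 on day 5 and 4950 on day 7. SLC26A3 read 794 and 1365, RNF186 990 and 1690, and TFF3 3663 and 6021, all between the controls. CEACAM7 read 201 and 311 by its brightest probe set, near its day 5 control of 232. Its dimmer probe sets read 117 and 163, and 21.6 and 80.5. On the day 5 control these read 19.3 and 8.48, both under the median. These 5 genes were highest on day 7. Others of the same kind were not, as TFF1 at 995 and 2240 against 2002 on day 7, and MEP1A at 1113 and 3556 against 3295.

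HIF targets were found at both places in this order. Day 7 was the highest of 4 arrays for 10 of 30, compared with 20 of 28 absorptive colonocyte genes. It was highest for 44 of 56 cytosolic ribosomal proteins, 12 of 26 respiratory chain genes and 1 of 30 ribosome assembly genes. The share over all genes is not given here, so the counts are a description. They include bright genes, to which the limit above applies. NDRG1 read 15112 and 18993 on the miRNA arrays, below the 22544 of day 7, and ADM 6177 and 7162, below its 9092. ANKRD37 (2679 and 3263, against 3333) and PFKFB4 (867 and 1448, against 1470) were also below day 7. DDIT4, by contrast, read 12075 and 14095 on the miRNA arrays, above the 10537 of day 7, and BNIP3 17487 and 19295, at or above its 17134. PDK1 read 3249 and 3108 against 1334 on day 7, and VEGFA 6248 and 6992 against 4091. PLOD2 (5980 and 5837) and SLC40A1 (4264 and 4860) were above day 7 as well. CLDN2 read 745 and 574 on the miRNA arrays, lower than on either control. Of the 22 genes higher by every probe set, day 7 was the highest of 4 arrays in 13, and both miRNA arrays were above it in 7. The day 7 value chose these genes, so the count is a description.

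**Figure D5:**
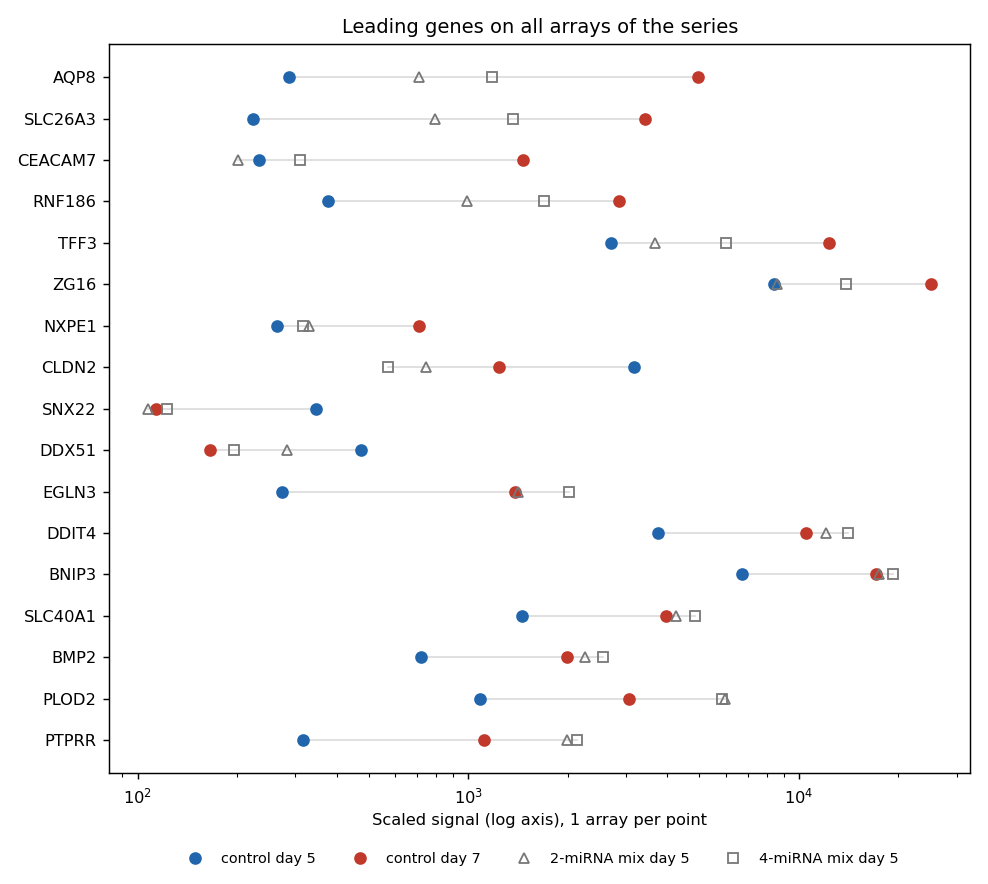
Scaled signal (log axis) of 17 genes on the day 5 control (blue), the day 7 control (red) and the day 5 arrays of the 2-miRNA mix (triangles) and 4-miRNA mix (squares), 1 array per point. AQP8, SLC26A3, TFF3 and ZG16 are highest on day 7, whereas DDIT4, BNIP3, PLOD2 and PTPRR are at least as high on both miRNA arrays. For bright genes such as ZG16 and BNIP3 the order is of scaled values only.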

How the data were processed

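The labels gave 1 T84 array per group. The authors deposited a table of linear intensities, made with MAS5 according to the submitters' processing notes, with software version and scaling target not given in the sources used here. Probe sets were named through the platform annotation: 41097 carried 1 symbol, the 1801 with several symbols were dropped, and 11777 had none; 41043 matched RefSeq (GRCh38.p14) by gene ID.

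Each array was scaled to a mean of 500 after trimming 2% at each end, and 32 was added before log2, which understates differences of dim genes. Probe sets were kept with a mean log2 over the 4 arrays at or above the median, or a signal at the 75th percentile of any array. Each gene was represented by its brightest probe set on average; 5896 genes had several and 6368 had 1. A gene or probe set under the median of 1 array gets a lower bound, its brighter signal over that median. Probe set SD came from differences between 2 probe sets of a gene, divided by the square root of 2, and shared SD from their covariance.

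Named genes were the 15 strongest by every probe set in each direction, up to 6 members of each list past 2-fold, the 8 largest with 1 probe set, the 4 largest bounds, and epithelial and reference genes. Others illustrating a list, including members inside 2-fold, were chosen after their values were seen. The members and the 37 lists were chosen with earlier results of these data known, and name families and promoter motifs after list values were seen. Promoter tables gave the first entry per gene. NDRG1, with no entry, has no promoter printed. Alternatives changed the scaling, the value added, the choice of probe sets and the low-signal filter. Scripts (Python 3.11.15, numpy 2.4.6, pandas 2.3.3) were tested on simulated data.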

Additional observations from a re-analysis of the deposited data

How the results depend on the processing

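Counts depended mainly on the filter on low signal. With the filter at the 70th percentile, 163 genes were higher and 59 lower, and 13 and 0 by every probe set; with no filter the counts were 1485 and 1331, and 61 and 35. No test gives a p-value for that 0. Adding 64 before log2 left 196 lower genes, and 2 by every probe set. Without probe sets ending in _s_at or _x_at, which can match several transcripts, 11 genes were higher and 3 lower by every probe set. The share of called genes that were higher was 58.1%, but 73.4% with the stricter filter and 52.7% without one. Of the 411 higher and 296 lower genes, 405 and 293 kept their call after quantile normalization, 332 and 252 by the median over probe sets, 308 and 223 without the shared probe sets, 301 and 201 with the filter on the control arrays alone, and 290 and 189 with 64 added. Each list median was compared with its value under each of these settings. In 461 comparisons it counted as unchanged, within 0.27, the SD specific to a probe set at levels of 9 or more. In 2 it moved further and in 3 it counted as reversed. Medians near 0 could not count as reversed by the rule used, and some of them changed sign. Those of BMP and TGF-beta (0.09, down to -0.03), keratins with vimentin (-0.06, up to 0.15) and the respiratory chain (0.01, down to -0.05) did so. So did those of enteroendocrine genes, solute carriers and chloride secretion, and the directions of these small medians are not settled. Many of the medians are themselves smaller than 0.27. The membrane mucin median was 0.54 with no filter, and the enteroendocrine median -0.47 at the 70th percentile. The xenobiotic median was -0.0833 without the shared probe sets and -0.000897 with no filter, and the Paneth median -0.53 without them, so these 2 directions are not settled. FGD2 was 0.18 by the median over its probe sets and 0.55 without shared ones, the opposite of its value above. The cause was not tested. No paired analysis was possible because each group has 1 array. Dim signal limits most calls, and 1 array per group leaves culture variation unmeasured.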

Other observations

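Genes of lipid handling lay mostly above 0. Of 20 expressed genes of cholesterol and fatty acid synthesis 16 lay above 0, with a median of 0.15 and none 2-fold apart. SCD, the desaturase that makes oleate, read 11508 and 19909 (0.79, 4 probe sets 0.49 to 0.79), and SC5D, a late enzyme of cholesterol synthesis, 2260 and 4244 (0.90). Of 15 genes of lipid oxidation 12 lay above 0 (0.28), and the 1 past 2-fold was CYP4F2, given above as a bound. PLIN2, which coats lipid droplets, read 6141 and 9568 (0.64), and CPT1A, which admits fatty acids to mitochondria, differed by 0.38 to 0.69 over 4 probe sets.

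Metallothioneins and zinc genes had no common direction. Of 7 expressed genes 5 lay above 0 (0.23), with MT1H at 762 and 1470 (0.92) and MT2A at 3512 and 2634 (-0.41). The reference gene ACTB differed by -0.06 (probe sets -0.09 to 0.05) and GAPDH by 0.24 (6 probe sets, 0.09 to 0.24). Histone genes were above 0 in 22 of 33 (0.23), and H2AC6 read 1363 and 3050 (1.14). Antigen presentation genes were above 0 in 10 of 14 (0.12) and ligands and feedback genes of the EGF receptor in 11 of 15 (0.14). Immediate early genes were above 0 in 13 of 22 (0.22), and CCN1, a matrix protein among them, was at least 1.80-fold lower. Keratins with vimentin were split, 5 of 10 on each side. Genes of xenobiotic and bile acid handling were above 0 in 10 of 17 (0.18), a direction that turned under other settings.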
